A study of Mus musculus with 6 samples.

Results

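Aldehyde dehydrogenases (ALDHs) oxidize aldehydes to carboxylic acids, and 10 of their genes were followed here from mouse glial cells with an empty vector to the same kind of cells with the histone mutation H3.3K27M. These were *Aldh1a1*, *Aldh1a2*, *Aldh1a3*, *Aldh1b1*, *Aldh2*, *Aldh3a1*, *Aldh3a2*, *Aldh3b1*, *Aldh7a1* and *Aldh9a1*, taken by name from 22911 genes that the array's probes could be assigned to, with each probe assigned through its RefSeq accession. All 10 had a probe (15 probes in all), and 9 of the 10 were bright enough to be tested among 14898 genes. *Aldh1a1*, *Aldh1a3*, *Aldh1b1*, *Aldh2* and *Aldh3a1* were higher in the mutant cells, and *Aldh3b1*, *Aldh7a1* and *Aldh9a1* were lower. *Aldh3a2* did not pass the test with its brightest probe, and *Aldh1a2* was close to the background in both groups.

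OS3 cells are glial cells of newborn C3H/HeN mice that were immortalized with SV40 (the labels give male brain). WT cells (labelled OS3-vector) carried the empty vector, and IG27 cells (labelled OS3-H3F3A_K27M) carried an *H3f3a* plasmid with lysine 27 of histone H3.3 changed to methionine. Both kept their own *H3f3a* genes and were grown in the same MEM-α medium with fetal bovine serum, insulin and D-glucose, and RNA was taken from 3 dishes of each after 2 days. The transfected cells were established as clones by drug selection, and the labels do not say which clone was used, so the mutation and the clone cannot be told apart and the p-values measure the spread between dishes.

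The family is known for clearing reactive aldehydes and for making signals. The ALDH1A enzymes turn retinaldehyde into retinoic acid, the ligand of nuclear receptors that direct differentiation in the developing brain, and high ALDH1 activity is widely used to mark stem-like cells, in gliomas too. The mitochondrial enzymes ALDH1B1 and ALDH2 oxidize acetaldehyde to acetate, ALDH3 enzymes act on aldehydes from lipids, and ALDH7A1 and ALDH9A1 serve the breakdown of lysine and the making of betaine and carnitine.

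Each dish was measured on 1 single-color Agilent mouse array with 56605 probes. Values are given as normalized log2 intensity, in which 0 is the 75th percentile of the array, 1 unit is a doubling, and the levels of different probes cannot be compared. On the 5 arrays with complete scanner output, 58.8% to 61.2% of the probes were well above background by the scanner software's own flag. The scanner output of IG27 replicate 2 is cut short, so its values come from the deposited value table and it has no flags. The dimmest probes with the flag lay between -6.01 and -5.33 on these arrays. A gene whose probe had the flag on no array of a group is given by a lower bound of its fold change ("at least"), which sets the dim group at the higher of this limit and its own signal on each array. The probe for *H3f3a* read 6.96, 6.70 and 6.85 in WT cells and 6.61, 6.52 and 6.61 in IG27 cells, and whether it also reads the plasmid's RNA is not known. Of the defining glial markers, *Gfap* was at 6.56 to 6.71 in WT cells and 5.41 to 5.70 in IG27 cells, and *Olig1* at 2.31 to 2.41 and 3.79 to 3.89. *S100b* was at -1.58 to -1.33 and 3.37 to 3.55, *Slc1a3* had no flag in WT cells, and *Gja1* was too dim to be tested. In such bulk RNA, fewer cells of a kind cannot be told from less RNA per cell.

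Differences between the groups were common. At a limma adjusted p of 0.05, 10501 of 14898 genes (70.5%) passed, 4546 (30.5%) higher and 5955 (40.0%) lower in IG27 cells, and the median difference was -0.07 with a median size of 0.47. Against this background, 8 of the 9 tested ALDH genes passed (88.9%), 5 higher and 3 lower, with a median difference of 1.11. *Aldh1a3*, *Aldh1b1* and *Aldh2* entered the test only through IG27 cells, where they are bright, so they had to differ. The 3 arrays of each group did not overlap in 8 of the 9 genes (5 higher, 3 lower), against 75.7% of all genes tested (33.4% higher, 42.4% lower). Passing with a difference of at least 2-fold were 5 genes that rose and 2 that fell, against 11.5% and 11.7% of all genes. The study's methods give a threshold of 0.05 and name no adjustment. At an unadjusted p of 0.05, the same number of ALDH genes (8) and 72.9% of all genes passed.

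**Figure D1:**
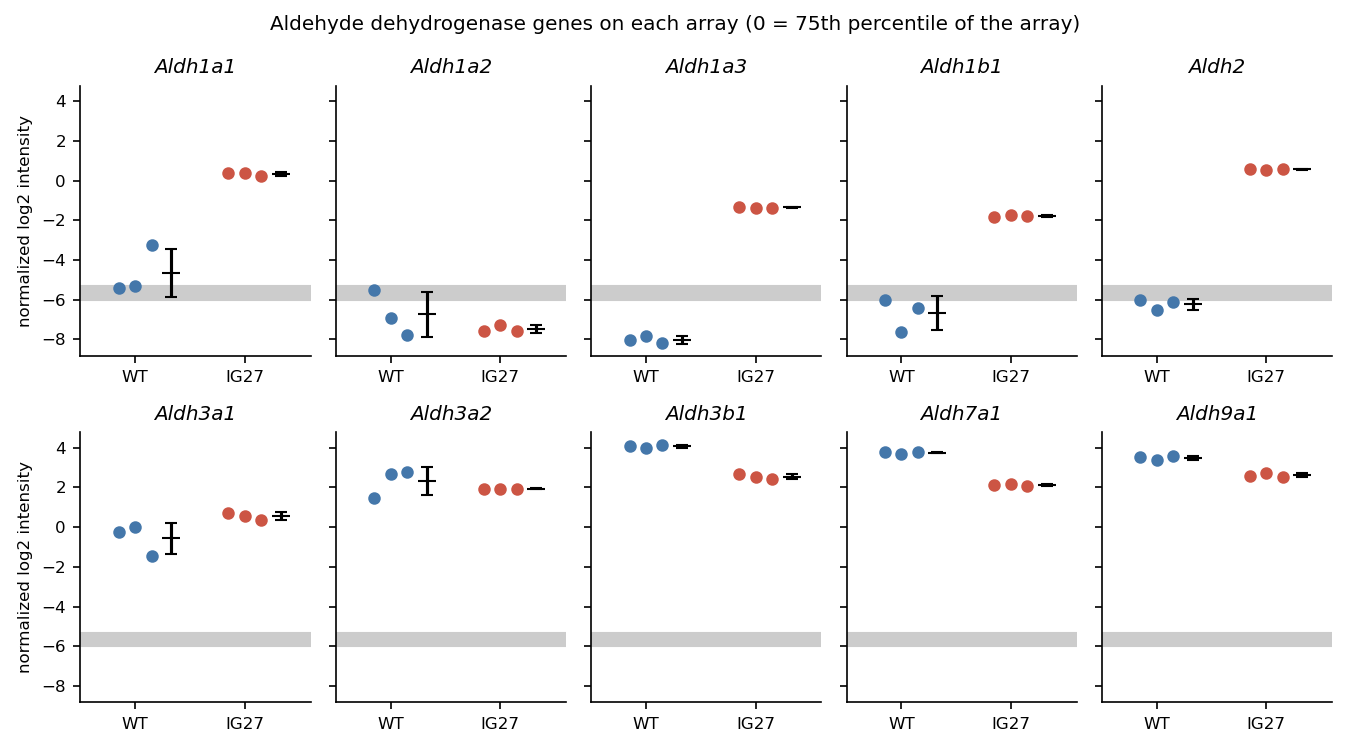
Normalized log2 intensity (vertical axis, 0 is the 75th percentile of the array) of the 10 ALDH genes on each of the 3 WT arrays (blue) and 3 IG27 arrays (red), in the order of replicate number, with the mean and SD as bars and the brightest probe for each gene. The gray band is the range of the dimmest signals flagged as well above background (-6.01 to -5.33). *Aldh1a3*, *Aldh1b1* and *Aldh2* lie under or at the band in WT cells and at -1.84 or higher in IG27 cells, *Aldh1a2* lies low in both, and *Aldh3b1*, *Aldh7a1* and *Aldh9a1* are bright in both and lower in IG27 cells. WT replicates 1 and 2 of *Aldh1a1* lie at the upper edge of the band.

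The promoters of ALDH genes that rose, fell or stayed dim are shown to set these genes side by side. Each sequence is the 250 bases before the annotated start in RefSeq (GRCm38.p6), 5′ to 3′ on the gene's strand, for 4 of the genes that passed the test (*Aldh1a1*, *Aldh1b1*, *Aldh3b1* and *Aldh9a1*), for *Aldh1a2*, and for *Aldh1a7*, the close relative of *Aldh1a1*. Capitals mark the letters CCAAT or the letters GGGCGG or the letters TATAAA on either strand (ATTGG is the first of these read on the other strand and CCGCCC the second).
Aldh1a1 (second of 2 annotated starts, chr19:20601718-20601967, + strand): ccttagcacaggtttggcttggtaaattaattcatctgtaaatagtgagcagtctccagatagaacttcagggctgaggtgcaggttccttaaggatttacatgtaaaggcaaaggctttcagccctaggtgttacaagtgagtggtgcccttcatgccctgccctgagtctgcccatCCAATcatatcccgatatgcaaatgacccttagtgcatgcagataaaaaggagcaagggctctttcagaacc
Aldh1a7 (chr19:20727557-20727806, - strand): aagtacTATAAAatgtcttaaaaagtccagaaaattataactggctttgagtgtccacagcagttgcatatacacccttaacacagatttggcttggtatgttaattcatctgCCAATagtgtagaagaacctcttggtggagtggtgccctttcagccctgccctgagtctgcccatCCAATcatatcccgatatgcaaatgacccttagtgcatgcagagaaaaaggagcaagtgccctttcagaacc
Aldh1b1 (chr4:45798772-45799021, + strand): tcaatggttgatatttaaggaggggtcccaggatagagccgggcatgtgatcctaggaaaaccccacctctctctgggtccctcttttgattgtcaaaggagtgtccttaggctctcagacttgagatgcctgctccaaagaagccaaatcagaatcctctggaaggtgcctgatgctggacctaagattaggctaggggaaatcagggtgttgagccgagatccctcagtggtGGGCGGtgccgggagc
Aldh3b1 (chr19:3929779-3930028, - strand): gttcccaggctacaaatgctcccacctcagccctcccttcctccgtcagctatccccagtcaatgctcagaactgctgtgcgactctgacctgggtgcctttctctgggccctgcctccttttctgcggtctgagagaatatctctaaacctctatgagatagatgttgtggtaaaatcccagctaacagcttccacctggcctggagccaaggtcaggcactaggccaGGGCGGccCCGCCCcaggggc
Aldh9a1 (chr1:167349741-167349990, + strand): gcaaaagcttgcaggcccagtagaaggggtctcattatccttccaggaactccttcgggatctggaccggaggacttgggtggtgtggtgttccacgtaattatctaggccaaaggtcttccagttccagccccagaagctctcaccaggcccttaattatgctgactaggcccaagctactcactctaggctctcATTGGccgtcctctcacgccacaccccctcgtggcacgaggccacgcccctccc
Aldh1a2 (chr9:71215539-71215788, + strand): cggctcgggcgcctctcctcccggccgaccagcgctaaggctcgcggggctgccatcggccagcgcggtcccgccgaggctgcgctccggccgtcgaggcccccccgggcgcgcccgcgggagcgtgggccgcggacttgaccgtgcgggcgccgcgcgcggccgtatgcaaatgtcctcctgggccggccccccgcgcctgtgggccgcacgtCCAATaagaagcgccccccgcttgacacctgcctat

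The windows of *Aldh1a1* (second start) and *Aldh1a7* were alike in 185 of 272 aligned columns (68.0%). The other 135 pairs of ALDH windows were alike in 40.7% to 54.5%. These windows of *Aldh1a1* and *Aldh1a7* both hold 1 CpG, and both hold CCAAT, once in *Aldh1a1* and at 2 places in *Aldh1a7*, which also holds TATAAA. The window of the first *Aldh1a1* start, not shown, holds 3 CpGs and no CCAAT, and was alike to that of *Aldh1a7* in 53.9%. Over 32851 promoters of the same length, 33.8% hold CCAAT, 32.7% GGGCGG and 12.4% TATAAA, and the median is 6 CpGs (quartiles 2 and 16). The window of *Aldh1b1* holds 4 CpGs and 1 GGGCGG, that of *Aldh3b1* 5 CpGs and 2 GGGCGG, and that of *Aldh9a1* 8 CpGs and 1 CCAAT. The window of *Aldh1a2*, the gene that stayed dim, holds 40 CpGs, and 98.9% of promoters have as few or fewer. Promoters of 6 of the 10 genes were read. *Aldh1a3*, *Aldh2* and *Aldh3a1* had no entry. Promoters on chromosome 18 were left out, so that of *Aldh7a1* was not read.

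The retinaldehyde dehydrogenases came first. *Aldh1a1* (chromosome 19) encodes the cytosolic enzyme most often tied to ALDH activity in stem-like cells. Its probe read -5.38, -5.30 and -3.26 in the WT cells and 0.38, 0.40 and 0.23 in the IG27 cells. The groups did not overlap, and WT replicate 3 stood above the other WT arrays by more than the whole range of the IG27 arrays. All flagged arrays were above background, so the change is a measured one: 4.99 on the log2 scale (SE 0.57, adjusted p = 0.000336), or 31.7-fold (95% CI 12.1 to 83.2), rank 227 among the rises. WT replicates 1 and 2 lay near the dimmest flagged signals of their arrays (-5.77 and -5.53), so the size of the fold rests on dim WT signals. Without WT replicate 3 the difference was 5.68. With normexp background correction, which adds an offset of 50 to every signal and was run on the 5 complete arrays with quantile normalization, it was 3.48.

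*Aldh1a3* (chromosome 7) encodes a second retinaldehyde dehydrogenase, known from the developing eye and forebrain and from stem-like cells of gliomas. It read -8.05, -7.85 and -8.20 in WT cells and -1.33, -1.37 and -1.36 in IG27 cells. No WT array was above background and both flagged IG27 arrays were, and the IG27 arrays agreed within 0.04. *Aldh1a3* was at least 21.4-fold higher in IG27 cells (measured difference 6.68, SE 0.09, adjusted p = 9.72e-08). With normexp the difference was 2.96, under the bound (4.42 on the log2 scale), and its offset lifts dim values by construction.

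*Aldh1a2* (chromosome 9) encodes the main retinoic acid maker of the early embryo. It read -5.52, -6.90 and -7.78 in WT cells and -7.57, -7.26 and -7.59 in IG27 cells. Only WT replicate 1 was well above background, so the gene could not enter the test and no fold change is given. In the fit with no filter on dim probes, its difference was -0.74 (SE 0.58, adjusted p = 0.33). Of these 3 genes, *Aldh1a1* and *Aldh1a3* thus rose.

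*Aldh1a7* (chromosome 19) lies beside *Aldh1a1* and is closely alike to it, so a probe of either gene may read RNA of the other. It read -7.91, -6.75 and -8.27 in WT cells and -2.92, -3.14 and -3.05 in IG27 cells. No WT array was above background, so the gene entered the test only through IG27 cells and had to differ. It was at least 6.64-fold higher in IG27 cells (adjusted p = 7.36e-05), a bound of 2.73 on the log2 scale. With normexp the difference was 1.59, under that bound. How much of this signal is RNA of *Aldh1a1* was not tested. The median difference of the 529 genes tested on chromosome 19 was 0.18.

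Both mitochondrial acetaldehyde dehydrogenases were higher in IG27 cells. *Aldh2* (chromosome 5), the main enzyme of ethanol-derived acetaldehyde, read -6.02, -6.54 and -6.10 in WT cells and 0.57, 0.55 and 0.61 in IG27 cells. Its groups were far apart, and the IG27 arrays were tight (SD 0.03). The SD of 0.28 in WT cells is a spread of signals not above background. With no WT array above background, *Aldh2* was at least 81.4-fold higher (measured difference 6.80, SE 0.14, adjusted p = 2.51e-07), the largest bound among the 10 genes. With normexp the difference was 4.49, under that bound (6.35 on the log2 scale).

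A second probe for *Aldh2* gave the same direction with less agreement between dishes. It read -2.59, -7.58 and -8.03 in WT cells and -1.06, -0.96 and -0.83 in IG27 cells. WT replicate 1 was the only WT array above background with this probe, and it lay between the other WT arrays and the IG27 arrays. The difference was 5.11 (SE 1.42, adjusted p over all probes = 0.0202), and the brighter probe showed no such array. The bound given for *Aldh2* is that of the brighter probe alone.

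*Aldh1b1* (chromosome 4), a mitochondrial enzyme that also accepts retinaldehyde and is known from stem cells of the gut, read -6.00, -7.61 and -6.39 in WT cells and -1.84, -1.73 and -1.79 in IG27 cells. Again no WT array was above background. The gene was at least 15.8-fold higher in IG27 cells (measured difference 4.88, SE 0.40, adjusted p = 7.07e-05). Its measured difference was 5.82 against WT replicate 2 alone, the dimmest of the WT arrays. With normexp it was 2.02, under the bound (3.98 on the log2 scale).

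The ALDH3 genes did not move together. *Aldh3a1* (chromosome 11) encodes an enzyme for aromatic and medium-chain aldehydes that is abundant in the cornea and is induced through the aryl hydrocarbon receptor in other tissues. It read -0.24, 0.01 and -1.45 in WT cells and 0.73, 0.58 and 0.35 in IG27 cells. The groups did not overlap, but the gap between WT replicate 2 and IG27 replicate 3 was small beside the range of the WT arrays (1.46). The difference was 1.11 (SE 0.38, adjusted p = 0.0387), or 2.16-fold (95% CI 1.13 to 4.12). This call was lost in 7 of 18 alternatives, and against WT replicate 2, the only WT array in the slide row of the IG27 arrays, the difference was 0.54 (adjusted p = 0.367).

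*Aldh3a2* (chromosome 11, next to *Aldh3a1*) encodes the fatty aldehyde dehydrogenase of the endoplasmic reticulum, the gene of Sjögren-Larsson syndrome. Its brightest probe read 1.49, 2.66 and 2.76 in WT cells and 1.94, 1.95 and 1.91 in IG27 cells. WT replicate 1 lay under all IG27 arrays and the other WT arrays above them, so the groups overlapped and the difference of -0.38 (SE 0.33, 95% CI -1.20 to 0.44, adjusted p = 0.35) did not pass. Without WT replicate 1 the difference was -0.78 (adjusted p = 1.82e-04).

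Both other probes of *Aldh3a2* had groups that did not overlap. The second read -0.29, 0.00 and -0.01 in WT cells and -0.76, -0.53 and -0.61 in IG27 cells, a difference of -0.53 (SE 0.11, adjusted p over all probes = 0.00535). The third, near the background, read -4.61, -5.12 and -4.63 in WT cells and -5.61, -6.05 and -5.41 in IG27 cells (adjusted p over all probes = 0.0101). No flagged IG27 array was above background with it, so it was at least 1.47-fold higher in WT cells. All 3 probes thus had lower means in IG27 cells, and 2 of them passed.

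*Aldh3b1* (chromosome 19) encodes a membrane-bound enzyme that oxidizes medium- and long-chain aldehydes from lipid peroxidation. It read 4.10, 4.0 and 4.14 in WT cells and 2.66, 2.55 and 2.45 in IG27 cells. The arrays of each group were tight and far apart, and the gene fell by 1.53 on the log2 scale (SE 0.07, adjusted p = 6.38e-06), 2.88-fold higher in WT cells. It and *Aldh1a1*, on the same chromosome, moved in opposite directions.

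**Figure D2:**
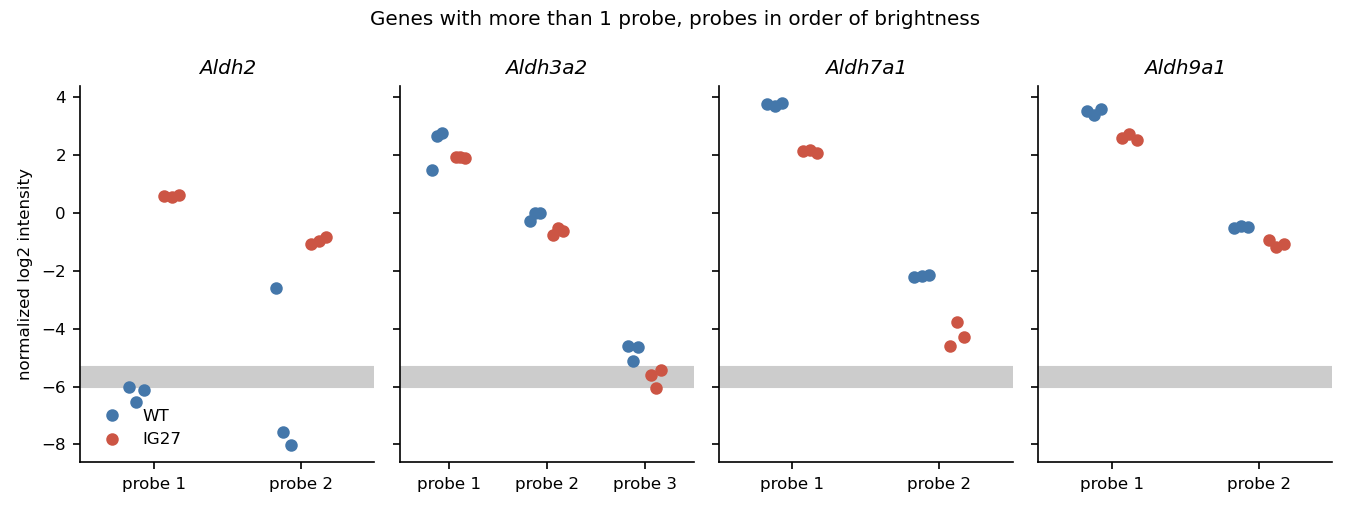
Normalized log2 intensity (vertical axis) of every probe of the 4 ALDH genes with more than 1 probe, in order of brightness from left to right, on each WT (blue) and IG27 (red) array, with the range of the dimmest flagged signals as a gray band. The probes of *Aldh7a1* and *Aldh9a1* all lie lower in IG27 cells. WT replicate 1 stands apart from the other WT arrays in the second probe of *Aldh2* (-2.59) and in the first of *Aldh3a2* (1.49).

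*Aldh7a1* (chromosome 18) encodes antiquitin, which acts in lysine breakdown and on betaine aldehyde and is mutated in pyridoxine-dependent epilepsy. It read 3.77, 3.71 and 3.8 in WT cells and 2.14, 2.18 and 2.06 in IG27 cells. No array of either group was within 1 unit of the other group, and the gene fell by 1.63 (SE 0.05, adjusted p = 1.52e-06), 3.1-fold higher in WT cells. Its other probe read -2.20, -2.18 and -2.14 in WT cells and -4.61, -3.76 and -4.27 in IG27 cells (difference -2.04, adjusted p over all probes = 0.000255). *Aldh7a1* had the largest fall among the 9 genes tested, rank 728 of all falls.

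*Aldh9a1* (chromosome 1) encodes the enzyme for trimethylaminobutyraldehyde in carnitine synthesis. It read 3.53, 3.38 and 3.59 in WT cells and 2.60, 2.72 and 2.52 in IG27 cells. The groups did not overlap, and the gene fell by 0.89 (SE 0.08, adjusted p = 0.000119), 1.85-fold higher in WT cells. Its other probe read -0.53, -0.46 and -0.47 in WT cells and -0.93, -1.18 and -1.06 in IG27 cells (difference -0.57, adjusted p over all probes = 0.00107).

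Of the WT arrays, only replicate 2 shared a slide row with the IG27 arrays, so a comparison within that row has 1 WT array and its spread is taken from the other arrays. It is given as a description of that array. The IG27 mean differed from it by 5.64 for *Aldh1a1*, -1.45 for *Aldh3b1*, -1.59 for *Aldh7a1* and -0.77 for *Aldh9a1*. For *Aldh1a3*, *Aldh1b1* and *Aldh2*, whose WT signal was not above background, the measured differences were 6.5, 5.82 and 7.12 and have no exact meaning as folds. Row 1 held WT replicates 1 and 3 alone and has no difference of its own.

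**Figure D3:**
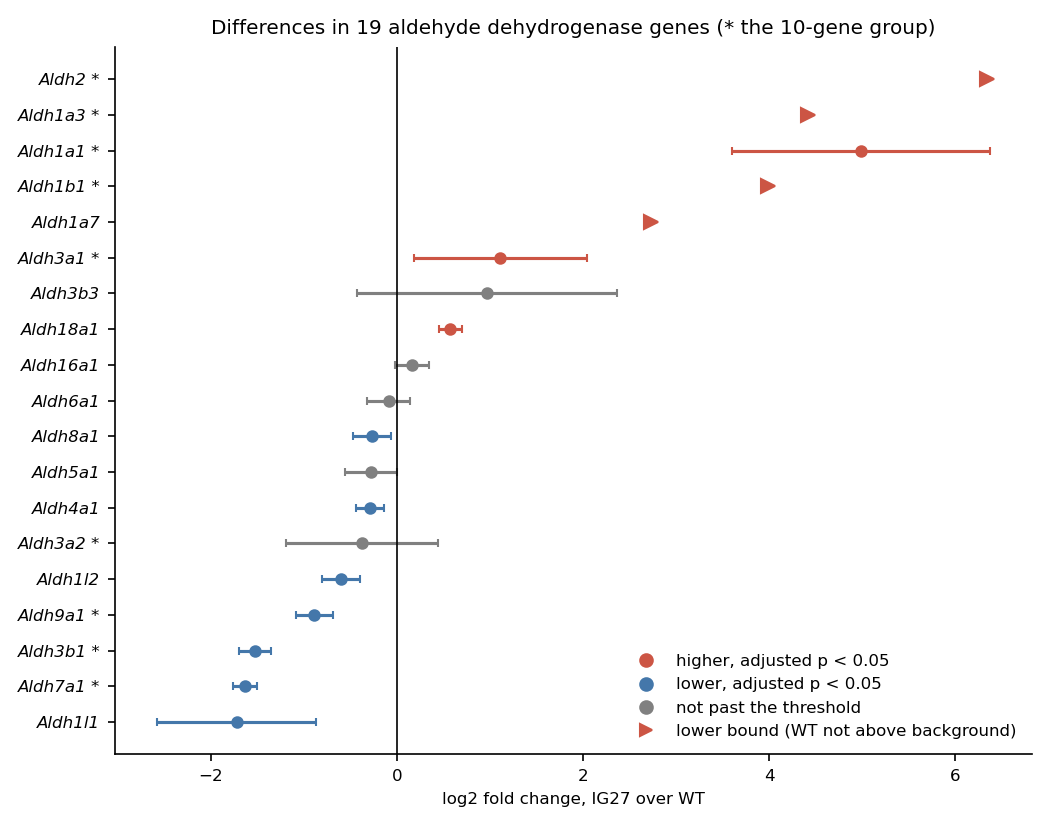
Log2 fold change (horizontal axis, IG27 over WT) of the 19 ALDH genes tested, with 95% confidence intervals as bars and asterisks on the genes of the group of 10. Triangles are lower bounds for the genes that were above background on no WT array. *Aldh2*, *Aldh1a3*, *Aldh1b1* and *Aldh1a7* are such bounds, and *Aldh1a1* is the largest rise measured in both groups (4.99).

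Of the 11 other ALDH genes 10 were tested, and 2 were higher, 4 lower and 4 not past the threshold (60% passed, median difference -0.18), so of all 19 tested 7 were higher and 7 lower (73.7%). These shares lie near those of all genes (70.5% past the threshold, 30.5% higher and 40.0% lower). Among the 7 higher, *Aldh1a3*, *Aldh1a7*, *Aldh1b1* and *Aldh2* entered the test only through IG27 cells, so they had to differ. Beside *Aldh1a7*, *Aldh18a1*, which makes the precursor of proline and ornithine, rose by 0.57 (SE 0.05, adjusted p = 0.0001). *Aldh1l1*, a folate enzyme widely used as an astrocyte marker, read -1.28, -1.25 and -1.23 in WT cells and -2.14, -3.25 and -3.54 in IG27 cells. It fell by 1.72 (SE 0.35, adjusted p = 0.00486), and IG27 replicate 1 lay closer to the WT arrays than the other IG27 arrays did. Its mitochondrial relative *Aldh1l2* fell by 0.60 (adjusted p = 0.000857), while its second probe did not pass (-0.42, adjusted p over all probes = 0.234).

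*Aldh4a1*, of proline breakdown, fell by 0.29 (adjusted p = 0.00577). *Aldh8a1*, of tryptophan breakdown, differed by -0.27 (adjusted p = 0.0258), a call lost in 11 of 18 alternatives. *Aldh5a1*, which clears succinic semialdehyde from the transmitter GABA, differed by -0.28 (adjusted p = 0.0715) and *Aldh6a1*, of valine breakdown, by -0.09 (adjusted p = 0.44). *Aldh16a1*, which lacks the usual catalytic residue, differed by 0.16 (adjusted p = 0.106), and its second probe by 0.55 (adjusted p over all probes = 0.0139). *Aldh16a1* passed in 5 of 18 alternatives (0.31 with quantile normalization and 0.41 with normexp, for example), and *Aldh5a1* in 2 of 18. *Aldh3b3*, a relative of *Aldh3b1* on chromosome 19, differed by 0.97 (adjusted p = 0.176), with WT replicate 1 at -5.20 and the other WT arrays within the span of -3.37 to -2.93. *Aldh3b2* was above background on no flagged array.

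Genes that make or remove the aldehydes, or that act next to the ALDH steps, were read from 8 lists (87 genes, 64 tested). In all, 28 were higher, 24 lower and 12 not past the threshold, so that 81.2% passed against 70.5% of all genes. The genes of these lists given below as "at least" entered the test only through the group where they are bright. They had to differ, so the share of 81.2% is partly set by the filter. The share of all genes also holds such genes.

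**Figure D4:**
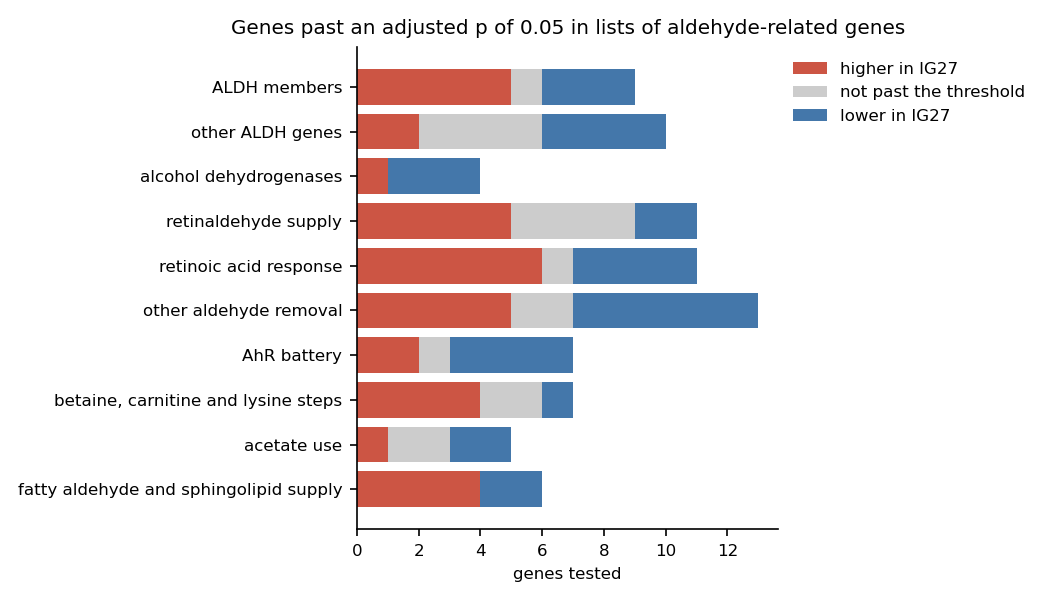
Number of genes tested (horizontal axis) in the ALDH group, the other ALDH genes and the 8 lists of related genes, in which IG27 cells were higher (red), lower (blue) or not past an adjusted p of 0.05 (gray). The retinoic acid response list holds 6 higher and 4 lower genes, and the alcohol dehydrogenase list 1 higher and 3 lower.

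Steps before and after the retinaldehyde dehydrogenases moved in both directions. In the list of retinol and retinaldehyde handling, 5 of 11 tested genes were higher and 2 lower (median 0.22). *Dhrs3*, which reduces retinaldehyde back to retinol, was at least 62.5-fold higher, from -7.66, -6.54 and -7.97 in WT cells to 0.22, 0.25 and 0.12 in IG27 cells. *Stra6*, a receptor that takes up retinol, rose by 1.86 (adjusted p = 3.72e-06), and *Rdh5*, a retinol dehydrogenase, by 0.62. *Bco1*, which cleaves carotene to retinaldehyde, was at least 3.58-fold lower, and *Rdh11* fell by 0.39.

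In the list of retinoic acid binding and response, 6 of 11 tested genes were higher and 4 lower (median 0.30). The receptor genes *Rxrg* and *Rarg* rose by 2.17 and 1.06 and *Rxra* fell by 0.76, while *Tgm2*, a transglutaminase that retinoic acid can induce, rose by 0.93. *Crabp1*, which binds retinoic acid in the cytosol, read 0.24, 0.16 and 0.29 in WT cells and -6.83, -6.73 and -6.79 in IG27 cells, at least 47.8-fold lower. *Cyp26b1*, which breaks retinoic acid down, fell by 1.55, and *Cyp26a1*, a classical retinoic acid target, was too dim to be tested. The alcohol dehydrogenases, which can oxidize retinol and ethanol, had 1 higher and 3 lower gene among only 4 tested (median -1.25), against 40.0% of all genes lower. *Adh7* fell by 2.06, *Adh1* by 1.95 and *Adh5* by 0.54, and *Adhfe1* rose by 0.59.

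Around the acetaldehyde enzymes, 1 gene of acetate use was higher and 2 lower among 5 tested (median -0.02). *Acss1*, which turns acetate into acetyl-CoA in mitochondria, fell by 1.71 and *Acat1*, a thiolase, by 1.31, while *Acly*, which makes acetyl-CoA from citrate, rose by 0.20. Other enzymes that remove aldehydes were split, with 5 of 13 higher and 6 lower (median 0.04). *Ptgr1*, which reduces alkenals, was at least 103-fold higher, *Aox1* rose by 2.65 and *Akr1b7* by 2.41. *Gsta4*, a glutathione transferase for 4-hydroxynonenal, read -0.03, -0.06 and 0.12 in WT cells and -7.60, -7.15 and -7.59 in IG27 cells, at least 41.1-fold lower. *Akr1c13* fell by 1.88 and *Cbr4* by 0.66.

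The genes of the aryl hydrocarbon receptor, which can induce *Aldh3a1*, split into 2 higher and 4 lower of 7 tested (median -0.83), against 30.5% higher and 40.0% lower among all genes. The receptor gene *Ahr* fell by 1.13, *Tiparp* by 1.29 and *Ahrr* by 3.81. *Cyp1a1* was at least 6.20-fold higher, and *Ugt1a6a*, not above background on every WT array, rose by 2.42. Of the genes that supply fatty aldehydes, 4 of 6 were higher and 2 lower (median 0.42), among them *Sgpl1*, which frees a fatty aldehyde from sphingosine phosphate (up by 0.94), *Cyp4f13* (0.58) and *Hacl1* (0.57). *Gnpat* and *Agps*, of ether lipid synthesis, fell by 0.75 and 0.25. Next to *Aldh7a1* and *Aldh9a1*, 4 of 7 genes of the betaine, carnitine and lysine steps were higher and 1 lower (median 0.18). *Bbox1*, the last step of carnitine synthesis, was at least 5.06-fold higher, *Bhmt*, which uses betaine, at least 2.88-fold higher and *Shmt1* up by 0.96, whereas *Aass*, the first step of lysine breakdown, fell by 0.52.

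Markers of other cells moved in both directions within most lists. The summed linear level of a list, in units of the array's 75th percentile, is set by its brightest probes, so it is given with the members that moved. Of the astrocyte markers, 2 were higher (*Slc1a3* at least 20.6-fold, *S100b* by 4.93) and 2 lower (*Gfap* by -1.07, *Slc1a2* by -1.03) among 6 tested. Their sum was 97.9 to 108 in WT cells and 57.4 to 65.9 in IG27 cells, with *Gfap* the brightest probe. Of 7 oligodendrocyte lineage markers tested 4 were higher, among them *Pdgfra* (2.36), *Olig2* (1.51) and *Olig1* (1.48), while *Sox10* was lower (-0.37). The sum, led by *Sox10*, was 73.4 to 75.6 and 74.5 to 77.1.

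Of 4 microglia markers tested, *Aif1* (1.66, above background on 1 of 3 WT arrays), *P2ry12* (0.49) and *Itgam* (0.20) were higher and *Csf1r* lower (-1.57), while *Ptprc* and *Cx3cr1* were too dim to be tested. The sum, led by *Itgam*, was 12 to 12.5 in WT cells and 12.3 to 12.7 in IG27 cells. Of 4 neuron markers tested, *Map2* was higher (8.03, above background on 1 of 3 WT arrays) and *Tubb3* lower (-2.63), with *Rbfox3* and *Syt1* too dim, and the sum was 18.5 to 20.7 and 10.9 to 12. Of 4 fibroblast markers tested, *Col3a1* (1.57) and *Dcn* (at least 3.32-fold) were higher and *Col1a1* (-0.92) and *Pdgfrb* (-1.16) lower, with a sum of 150 to 154 and 134 to 142. Of the endothelial markers, *Kdr* was at least 135-fold higher and *Pecam1* lower (-0.27), and the sum of the 5 was 0.172 to 0.194 and 2.60 to 2.67. *Cdh5*, *Cldn5* and *Tek*, which define these cells, were too dim to be tested. The part of all these markers in the ALDH differences was not tested.

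The genes most like *Aldh1a1* and *Aldh7a1* over the 6 arrays were found by the root mean square distance after centering each gene on its own mean. For *Aldh1a1* they were *Ucp2* (distance 0.27), *Ccna1* (0.37), *Rbm20* (0.39), *Stac2* (0.41) and *Tuba8* (0.44). None of these 5 was above background on any WT array, where *Aldh1a1* was above it on all 3. For *Aldh7a1* they were *Nusap1* and *Tsc22d3* (both 0.03), *Fat1* (0.03), *Ndufaf5* (0.04) and *Parp16* (0.04), all bright in both groups. These distances describe 2 groups of 3 arrays and say little beyond a like difference between the groups.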

How the data were processed

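RNA of 3 WT and 3 IG27 dishes was measured on 1 single-color (Cy3) array each. An Agilent scanner read the slide and the authors digitized the spots with Feature Extraction (version 9.1 in the submitters' processing notes, 10.7.3.1 in the file headers), and the deposited processed signal is a linear intensity per spot. The study's methods give GeneSpring and moderated tests. IG27 replicate 2's scanner output holds 285 complete spots, so the deposited value table gave its intensities (its 255 single-spot probes agree within a relative 1e-04). The table's columns for WT replicates 2 and 3 are exchanged against the scanner output, whose labels were kept.

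Each array's log2 processed signals were centered on their 75th percentile, without spots flagged as outliers (107 to 210 per array). No spot was saturated. The median processed signal was 55.4 to 77.6 over a local background of 29.0 to 34.0, and the number of arrays limits the precision. Probes were named through RefSeq accessions (GRCm38.p6 table, 32994 probes, 22911 genes). A gene was tested if a probe was well above background on every flagged array of a group, and its brightest such probe stood for it. Two-sided moderated tests of limma (3.58.1, under R 4.3.3, functions lmFit and eBayes) compared the groups without a block, and p was adjusted over 14898 genes (Benjamini-Hochberg, threshold 0.05). A fit over 34059 probes gave the values of further probes. In simulated data in which 200 of 14898 genes had known changes of 0.5, 1 and 2, 43.9%, 88.1% and 91.0% were recovered, and 7 unchanged genes passed. Far fewer genes changed there than passed in the real data, so these shares do not carry over to it. Promoter windows were aligned with Biopython (version 1.88).

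Alternatives were other normalizations, background correction and filters, kept outliers, the mean of probes, complete arrays only, a trend, replicate and slide row blocks, and each array left out. Named were all 10 genes, all other ALDH genes, up to 3 rises and 3 falls per list, and the 5 genes most like *Aldh1a1* and *Aldh7a1*. The genes, lists and marker genes were chosen with earlier results of these data known.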

Additional observations from a re-analysis of the deposited data

How the results depend on the processing

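None of the 9 tested genes of the group of 10 changed direction in the alternatives run, and *Aldh1a1* (3.48 to 5.68), *Aldh1a3* (2.96 to 6.78), *Aldh1b1* (2.02 to 5.82), *Aldh2* (4.49 to 7.12), *Aldh3b1* (-1.58 to -1.38), *Aldh7a1* (-1.84 to -1.49) and *Aldh9a1* (-0.95 to -0.70) passed in all 17 or 18 in which they were tested. Except with no filter on dim probes, *Aldh1a3*, *Aldh1b1* and *Aldh2* entered these fits only through IG27 cells. They had to differ there, so their passing does not measure robustness. The lowest rises came from normexp on median signals (the files used lack mean signals), whose offset compresses dim values. *Aldh3a1* no longer passed with normexp, which also left out IG27 replicate 2 and used quantile normalization (1.02, adjusted p = 0.0657), with no filter on dim probes (1.11, 0.0788), on complete scanner output only (1.10, 0.0924, the same as leaving out IG27 replicate 2) or with the slide row as a block (0.54, 0.367). With each array left out it ran from 0.67 to 1.40 and lost the call without IG27 replicate 1 (1.02, adjusted p = 0.119) or 3 (1.22, 0.0729). *Aldh3a2* passed with the mean of its probes (-0.60, 0.00727) and, with each array left out, ran from -0.78 (without WT replicate 1) to -0.15. With the stricter filter, above background on every flagged array, 5 ALDH genes passed, 2 of them higher, since *Aldh1a3*, *Aldh1b1* and *Aldh2* then left the test. With each array left out, 7 to 9 ALDH genes passed (4 to 5 higher, 3 to 4 lower), as did 49 to 51 of the listed genes and 9799 to 10162 of all genes. Over the other alternatives at the adjusted threshold, the count of all genes ran from 8946 (slide row block) to 10821 (quantile normalization). Arrays with the same replicate number did not deviate together (r across genes of 0.01, 0.04 and 0.08), and a fit with the replicate block passed 8 ALDH genes, 51 listed genes and 10309 genes. The cause of the other changes was not tested.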
